A study of Solanum lycopersicum with 8 samples.

Results

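The genes described here belong to the Aux/IAA, ARF, GH3 and PIN families of tomato (*Solanum lycopersicum*), which act in the response to auxin, its conjugation and its transport. The members were taken by gene identifier, and those whose FPKM averaged 0.1 or more were tested. Of 58 identifiers in the list, 55 were found among the 34688 genes of the table, and 53 reached that minimum: 20 Aux/IAA, 16 ARF, 7 GH3 and 10 PIN genes. The ARF gene Solyc10g086130 was listed at 0 in all 8 libraries, where the detection floor is 3 fragments per library, and the GH3 gene Solyc02g064830 held 1 to 6 fragments per library. Solyc07g008020 of the Aux/IAA genes and Solyc01g107400 and Solyc08g068490 of the GH3 genes were not analysed here.

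Whole wild-type Micro-Tom seedlings, 10 days old, were sequenced as 4 mock-treated and 4 Torin2-treated biological replicates. Torin2 blocks the kinase TOR, which couples nutrient and energy supply to growth. Torin2 was given at 5 μM in solid medium, for 2 h, and the mock treatment was water with the solvent DMSO at 0.1%. Each library was made from whole seedlings, and how many per library is not stated here. Root, hypocotyl and leaf therefore contribute to every value, and fewer cells of a type and less RNA per cell cannot be told apart.

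Auxin is perceived by receptors that mark Aux/IAA proteins for breakdown. Aux/IAA proteins hold back the ARFs, DNA-binding proteins that activate or repress auxin-responsive genes. Many Aux/IAA and GH3 genes are themselves early targets of auxin; GH3 enzymes join auxin or other plant hormones to amino acids, and PIN proteins carry auxin out of cells, or into the endoplasmic reticulum, and so direct its flow through roots and shoots.

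The depth was 36989257 to 39868131 fragments per library. FPKM is the number of fragments scaled to gene length and to library depth, and therefore allows levels to be compared between genes. Inside each condition the libraries fell on 2 sides of the first component of their deviations from the condition means, which held 53.6% of that variance. The first kind holds mock replicates 1 and 2 with Torin2 replicates 2 and 4. The second kind holds mock replicates 3 and 4 with Torin2 replicates 1 and 3. In the first kind the 10 most abundant genes took 5.63% to 6.91% of the fragments, and in the second kind 8.59% to 12.04%. Because kinds were read from these libraries, they are no batch of the labels, and a fit with the kind as a covariate has a smaller residual spread by construction.

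Few auxin genes passed the cut-offs used, at a share near that of all genes tested. A gene was called at an adjusted p under 0.05 (limma, Benjamini-Hochberg over 22330 genes) when its log2 fold change was also above 1 or below -1. Of the 53 members, 3 passed (5.66%), against 8.32% of all genes tested. The ARF genes Solyc03g031970 and Solyc12g042070 rose (2 of 53, against 5.31% of all genes), and the PIN gene Solyc07g006900, SlPIN2, fell (1 of 53, against 3.0%). No Aux/IAA gene and no GH3 gene passed both cut-offs. At an adjusted p under 0.05 without the fold change cut-off, 5 members passed (9.43%, against 12.6% of all genes), the additional ones being the Aux/IAA genes Solyc08g021820, which rose, and Solyc06g008580, which fell. At an unadjusted p under 0.05 the count was 15 of 53 (28.3%, against 29.1% of all genes), of which 8 were ARF, 4 Aux/IAA, 2 PIN and 1 GH3. Without mock replicate 4, no member passed both cut-offs.

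**Figure D1:**
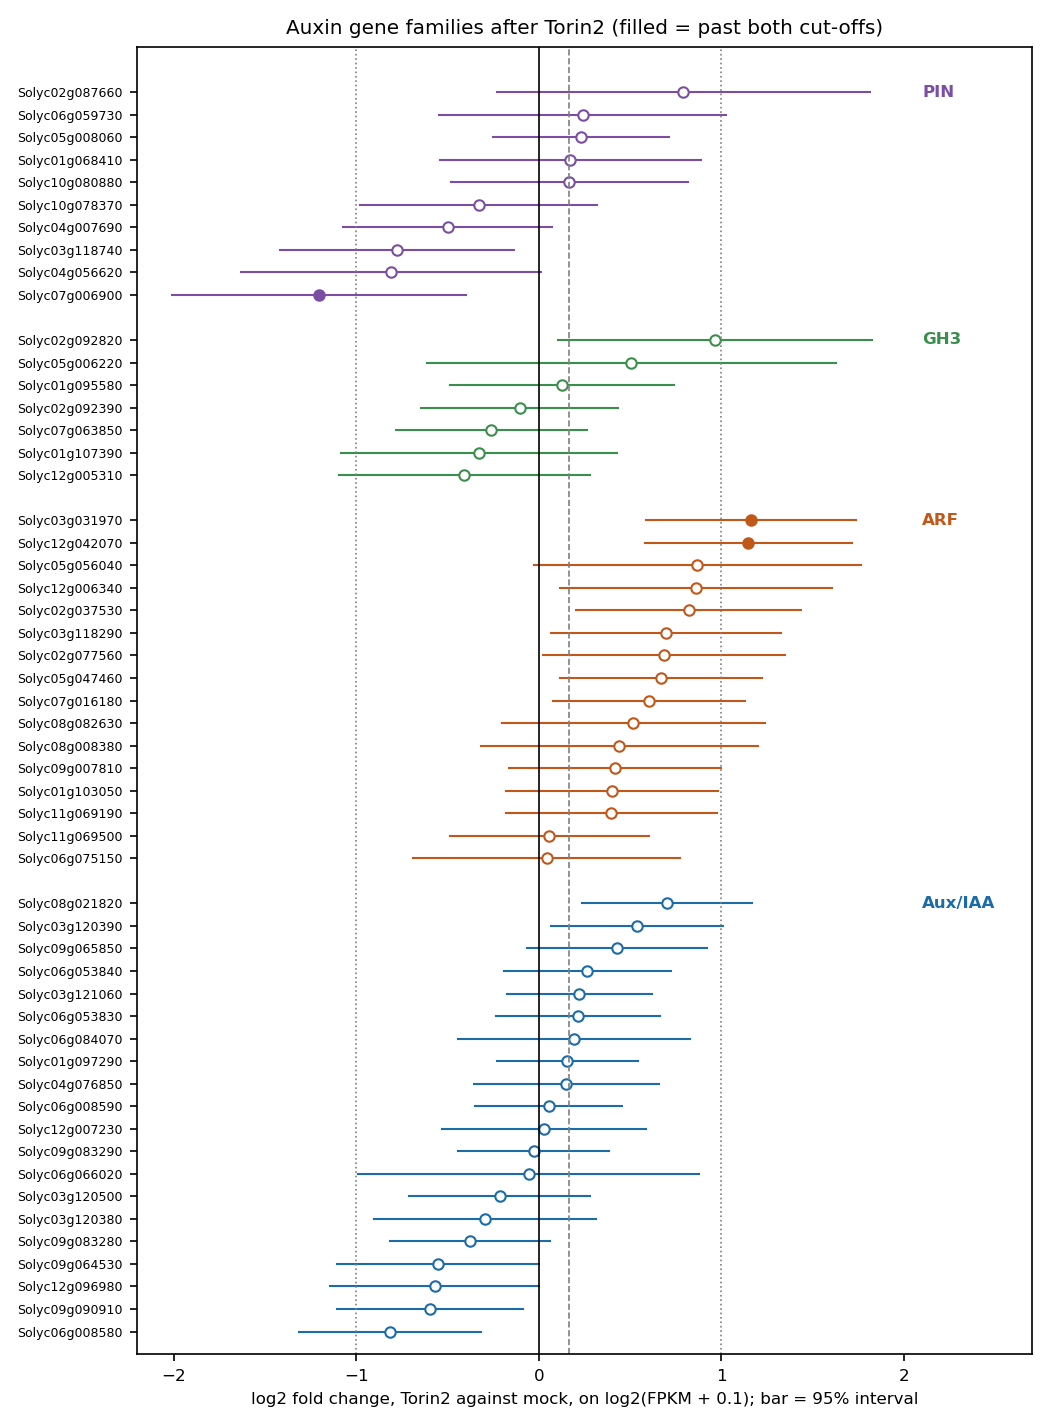
Log2 fold change of Torin2-treated against mock-treated seedlings on log2(FPKM + 0.1) for the 53 members, by family, with 95% limma intervals; filled points passed both cut-offs, dotted lines mark -1 and 1 and the dashed line marks the median of all genes, 0.16. All 16 ARF points lie above 0, while Aux/IAA and PIN points lie on both sides.

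The ARF family stood highest as a group. All 16 tested ARF genes had a log2 fold change above 0, from 0.04 for Solyc06g075150 to 1.16 for Solyc03g031970, with a median of 0.63. The median over all genes tested was 0.16, and 61.4% of them lay above 0. The summed level of the ARF genes was 123 ± 34.4 FPKM in mock-treated and 199 ± 58.5 FPKM in Torin2-treated seedlings (SD, n = 4), a ratio of 1.62. In single libraries the sums were 163, 141, 95.1 and 93.8 FPKM in mock replicates 1 to 4 and 139, 250, 159 and 248 FPKM in Torin2 replicates 1 to 4. The sums overlapped between the conditions, since mock replicate 1 of the first kind lay above Torin2 replicates 1 and 3 of the second.

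Solyc03g031970 had 10.5, 9.13, 6.12 and 6.01 FPKM in mock replicates 1 to 4 and 13.5, 22.7, 14.0 and 21.2 FPKM in Torin2 replicates 1 to 4. Every Torin2-treated library lay above every mock-treated library, and in both conditions the second kind was lower than the first. The mean went from 7.94 ± 2.24 to 17.8 ± 4.79 FPKM, a log2 fold change of 1.16 (SE 0.27, limma adjusted p = 0.0122). In the first kind alone the log2 difference was 1.15, and in the second alone 1.16.

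Solyc12g042070 had 14.9, 13.5, 9.64 and 8.70 FPKM in the mock-treated and 17.3, 31.9, 22.6 and 33.2 FPKM in the Torin2-treated libraries, replicates 1 to 4. Again the conditions did not overlap. Its mean went from 11.7 ± 2.99 to 26.3 ± 7.63 FPKM, a log2 fold change of 1.15 (SE 0.27, limma adjusted p = 0.0122), with 1.19 and 1.10 within the first and second kind. Without mock replicate 4, the log2 fold changes of Solyc03g031970 and Solyc12g042070 were 1.04 and 1.02, with adjusted p-values of 0.0569 and 0.0578.

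The other 14 ARF genes did not pass the test. Solyc03g118290, the most abundant ARF gene over all libraries, had 32.6, 26.0, 16.9 and 15.3 FPKM in mock replicates 1 to 4 and 22.3, 46.1, 31.3 and 47.4 FPKM in Torin2 replicates 1 to 4. Its conditions overlapped, and its log2 fold change was 0.70 (95% interval 0.07 to 1.33, adjusted p = 0.131). Solyc01g103050 was at the same level in the mock-treated seedlings (23.0 ± 5.66 against 22.7 ± 8.14 FPKM) and had a log2 fold change of 0.40. Solyc06g075150 had 1.82, 1.55, 0.888 and 1.41 FPKM in mock replicates 1 to 4 and 0.954, 2.23, 1.17 and 1.61 FPKM in Torin2 replicates 1 to 4, with full overlap. Its log2 fold change was 0.04 (95% interval -0.69 to 0.77). The highest of the 14 were Solyc05g056040, Solyc12g006340 and Solyc02g037530, at 0.87, 0.86 and 0.82 with adjusted p-values of 0.184, 0.117 and 0.0763. Solyc02g077560, Solyc05g047460, Solyc07g016180, Solyc08g082630, Solyc08g008380, Solyc09g007810 and Solyc11g069190 lay between 0.68 and 0.40, and Solyc11g069500 stood at 0.06 (95% interval -0.49 to 0.60).

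Inside each kind of library the ARF genes parted more clearly. For 13 of the 16 (81.2%), both Torin2-treated libraries lay above both mock-treated libraries in the first kind and again in the second, against 27.9% of all genes tested. Solyc08g008380, Solyc11g069500 and Solyc06g075150 were the exceptions. With the kind as a covariate, 12 ARF genes were higher at an adjusted p under 0.05 (limma), where 25.7% of all genes were, but only the same 2 also passed the fold change cut-off, as did 6.73% of all genes. Members of a family also varied together between libraries of one condition. Over the 8 deviations from the condition means, Pearson's r had a median of 0.87 over the 120 pairs of ARF genes (range 0.39 to 0.99), 0.68 over the 21 pairs of PIN genes, 0.66 over the 15 pairs of GH3 genes and 0.33 over the 190 pairs of Aux/IAA genes (members with a mean of at least 1 FPKM). These values describe libraries that share the difference between kinds. No value for pairs of other genes was set beside them, so they cannot be read as a trait of a family. All 16 ARF genes were lower in the second kind in both conditions, by a median log2 difference of -0.62 in mock-treated and -0.75 in Torin2-treated seedlings. The medians over all genes tested were -0.34 and -0.48. In the second kind, 9 of the 10 PIN genes and 6 (mock) or 7 (Torin2) of the 7 GH3 genes were also lower. Of the 20 Aux/IAA genes, 7 (mock) or 11 (Torin2) were lower in the second kind, with median differences of 0.12 and -0.12. The share of all genes lower in the second kind was not counted, so these counts cannot be read as a trait of a family.

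**Figure D2:**
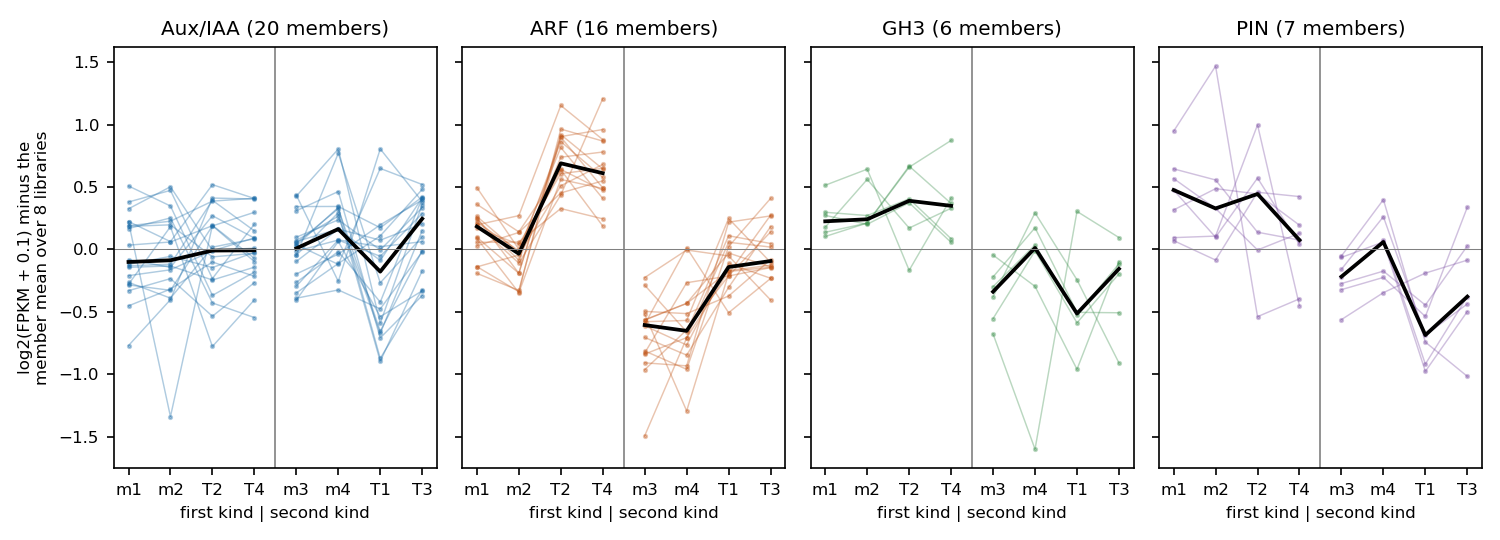
Log2(FPKM + 0.1) of each member with a mean of at least 1 FPKM, relative to its mean over the 8 libraries, with the libraries (m, mock; T, Torin2) ordered by kind and condition; thin lines are members and the black line is the median. In the ARF panel the Torin2-treated libraries lie above the mock-treated libraries of the same kind, and the second kind lies below the first.

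The ARF genes are long, and the change in these libraries varied with gene length. The recovered gene lengths of the ARF genes had a median of 2855 bp (954 to 4141 bp), against 1384 bp for all genes tested, 1105.5 bp for Aux/IAA, 2082 bp for GH3 and 1907 bp for PIN genes. Among the 3237 genes of 2400 to 4200 bp, which include 15 of the ARF genes, the median log2 fold change was 0.46 and 84.1% lay above 0. The 15 ARF genes of that range had a median of 0.60 and all lay above 0. Both called ARF genes lie in that range, so 2 of the 15 were called higher, against 7.14% of the genes in it. In that range 56.0% of genes had both Torin2-treated libraries above both mock-treated libraries in each kind, as did 12 of the 15 ARF genes. With the kind as a covariate, 48.3% of the genes in that range were higher at an adjusted p under 0.05 (limma), as were 11 of the 15 ARF genes. The 18506 genes shorter than 2400 bp had a median of 0.09.

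When the length trend had been taken out of every library, the ARF median was 0.13 against 0.02 for all genes, and 12 of the 16 ARF genes lay above 0, against 51.4% of all genes. No ARF gene then passed both cut-offs, where 7.56% of all genes did. Solyc03g031970 stood at 0.73 (limma adjusted p = 0.000994) and Solyc12g042070 at 0.61 (adjusted p = 0.00800), so that both kept an adjusted p under 0.05 at a smaller size. Solyc12g006340, the 1 ARF gene with a short model of 954 bp, stood at 0.91 (adjusted p = 0.0917). Over all 53 members, 12 had an adjusted p under 0.05 with the trend removed (22.6%, against 25.7% of all genes). The part of length in the ARF values was not tested beyond this.

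**Figure D3:**
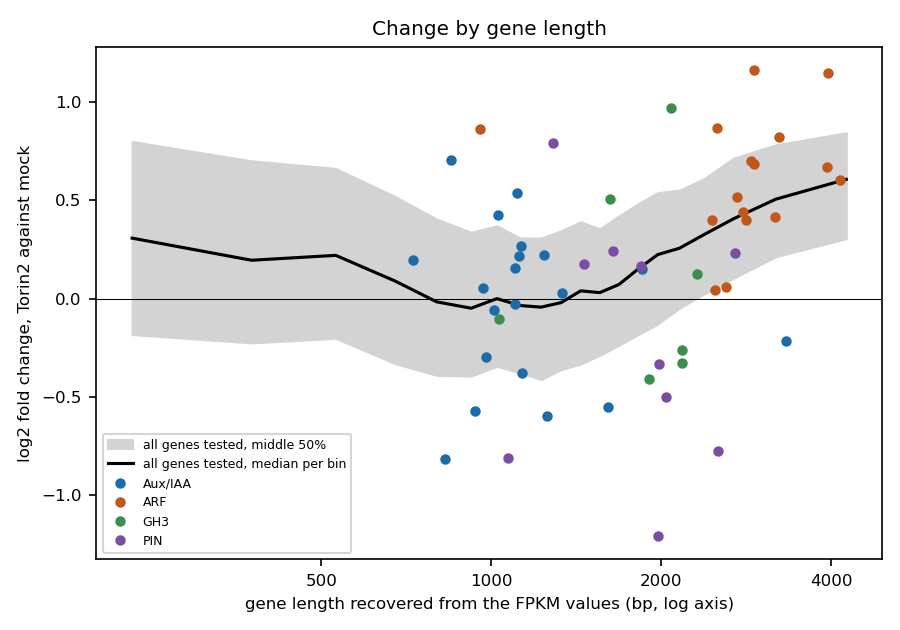
Log2 fold change of Torin2 against mock for the 53 members by gene length in bp (log axis), over the median (black) and the middle 50% (grey) of all genes tested in 20 bins of equal size. The bin median was 0.51 at 3192 bp and -0.04 at 1225 bp, and most ARF points follow the rise on the right.

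The 20 Aux/IAA genes, which encode the repressors of the pathway, had log2 fold changes on both sides of 0, and 2 of them had an adjusted p under 0.05, 1 higher and 1 lower. Their median log2 fold change was 0.04, and 11 of them lay above 0. As a family they were the most abundant, with a summed level of 1507 ± 88.3 FPKM in mock-treated and 1614 ± 158 FPKM in Torin2-treated seedlings, a difference within the spread of the Torin2-treated libraries. Solyc09g083290 alone gave 28.5% of the mock and 26.2% of the Torin2 sum. It had 383, 386, 453 and 499 FPKM in mock replicates 1 to 4 and 422, 357, 534 and 384 FPKM in Torin2 replicates 1 to 4. The conditions overlapped throughout, and the log2 fold change was -0.03 (95% interval -0.44 to 0.39). Solyc01g097290 (296 ± 27.2 to 330 ± 35.9 FPKM) and Solyc04g076850 (174 ± 39.0 to 195 ± 52.2 FPKM) followed in abundance, with log2 fold changes of 0.16 and 0.15.

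For 5 of the 20 Aux/IAA genes the 4 Torin2-treated libraries did not overlap the 4 mock-treated libraries (25.0%, against 19.2% of all genes tested), with 2 of them higher (11.4% of all genes were) and 3 lower (7.77%). Solyc08g021820 had 12.7, 16.4, 19.0 and 21.2 FPKM in mock replicates 1 to 4 and 25.0, 29.0, 28.7 and 28.8 FPKM in Torin2 replicates 1 to 4. Its Torin2-treated libraries lay close together above all mock-treated ones. The mean went from 17.3 ± 3.64 to 27.9 ± 1.94 FPKM, a log2 fold change of 0.70 (SE 0.22, limma adjusted p = 0.0464), with 0.99 in the first kind and 0.41 in the second. This adjusted p lay close to the threshold. It was 0.0542 with limma-voom, 0.0556 with quantile normalization, 0.0724 with a variance without trend, 0.112 with median-of-ratios scaling and 0.118 with TPM scaling. With 1 library left out it was 0.0642 to 0.140 in 7 of the 8 fits, and 0.0310 without Torin2 replicate 1.

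Solyc06g008580 had 8.83, 7.90, 7.69 and 8.56 FPKM in mock replicates 1 to 4 and 3.74, 4.77, 4.76 and 5.44 FPKM in Torin2 replicates 1 to 4. It fell without overlap and with a small spread in both conditions, from 8.24 ± 0.54 to 4.68 ± 0.70 FPKM, a log2 fold change of -0.81 (SE 0.23, adjusted p = 0.0338). In the first kind alone the log2 difference was -0.70, and in the second alone -0.93. After quantile normalization the value was -1.01 and passed both cut-offs. The adjusted p was above 0.05 with TPM scaling (0.136) and in 7 of the 8 fits that each left out 1 library (0.0537 to 0.100), and 0.0465 without Torin2 replicate 1.

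The other 3 Aux/IAA genes without overlap did not pass the adjusted test. Solyc09g090910 had 22.9 to 31.7 FPKM in mock-treated and 12.2 to 22.5 FPKM in Torin2-treated seedlings (log2 fold change -0.60, limma adjusted p = 0.112). Solyc09g083280 had 70.5 to 85.5 FPKM against 43.2 to 67.7 FPKM (-0.38, adjusted p = 0.238). Solyc03g120390 had 6.71 to 7.91 FPKM against 9.24 to 11.997 FPKM (0.54, adjusted p = 0.120). After removal of the length trend the values of these 3 genes were -0.56, -0.34 and 0.58, in the same order. Their limma adjusted p-values were then 0.00610, 0.0553 and 0.0121. In that fit 5 of the 20 Aux/IAA genes had an adjusted p under 0.05 (25.0%), against 25.7% of all genes. Solyc09g064530, whose conditions overlapped, was among them at -0.61 (limma adjusted p = 0.0185). The exact two-sided permutation p of each of the 5 Aux/IAA genes without overlap was 0.0286, the smallest that 4 libraries against 4 can give. The remaining 15 Aux/IAA genes had log2 fold changes from -0.57 (Solyc12g096980) to 0.43 (Solyc09g065850). Inside this range lay Solyc09g064530, Solyc03g120380, Solyc03g120500, Solyc06g066020, Solyc12g007230, Solyc06g008590, Solyc06g084070, Solyc06g053830, Solyc03g121060 and Solyc06g053840.

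Some Aux/IAA genes carry consecutive identifiers, and 4 such pairs could be compared as a ratio within each library, which cancels the library's scaling. The log2 ratio of Solyc06g008580 to Solyc06g008590 was -2.60, -2.82, -2.82 and -2.92 in mock replicates 1 to 4 and -4.01, -3.45, -3.80 and -3.38 in Torin2 replicates 1 to 4. The ratio was lower in all 4 Torin2-treated libraries, by -0.87 on average (exact two-sided permutation p = 0.0286, Benjamini-Hochberg adjusted over the 4 pairs 0.114). Solyc06g008590 itself was at 57.7 ± 5.39 FPKM in mock-treated and 60.0 ± 6.18 FPKM in Torin2-treated seedlings.

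The ratio of Solyc03g120380 to Solyc03g120390 went from 0.54 ± 0.29 to -0.30 ± 0.50 on the log2 scale, with overlap (exact permutation p = 0.0571, adjusted 0.114). For Solyc09g083280 and Solyc09g083290 the difference was -0.35 (exact permutation p = 0.229, adjusted 0.305), and for Solyc06g053830 and Solyc06g053840 it was -0.05 (exact permutation p = 0.857). No pair passed after adjustment, and with 4 libraries against 4 a single pair could not have passed.

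**Figure D4:**
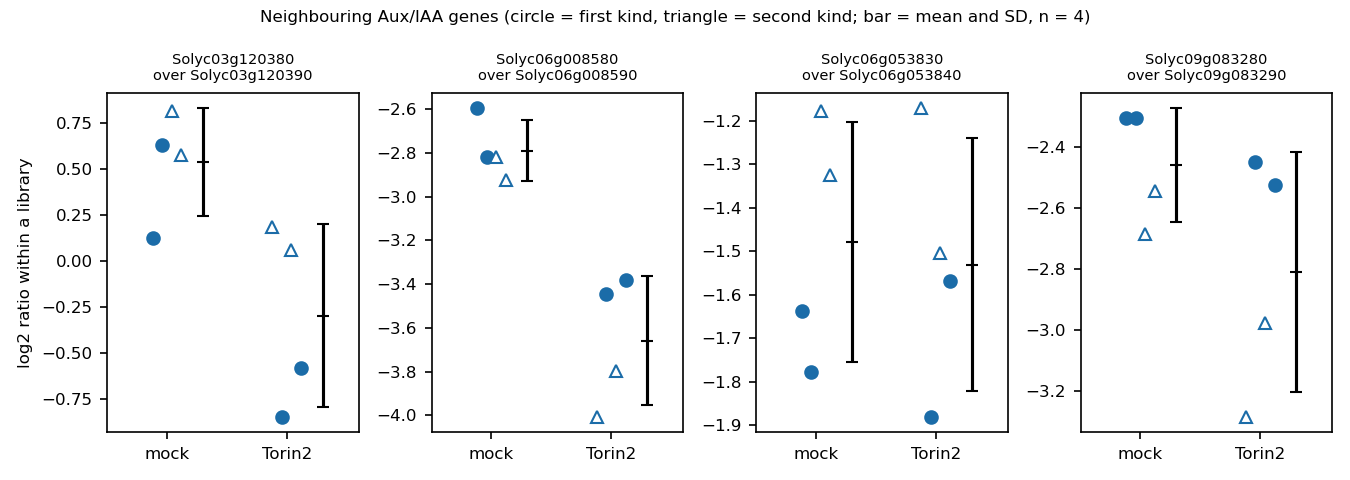
Log2 ratio of the FPKM values of consecutively numbered Aux/IAA genes in each library (circles, first kind; triangles, second kind; bars, mean and SD, n = 4). The ratio of Solyc06g008580 to Solyc06g008590 lies between -2.92 and -2.60 in mock-treated and between -4.01 and -3.38 in Torin2-treated seedlings.

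None of the 7 GH3 genes, which encode the conjugating enzymes, passed the test. At an unadjusted p under 0.05 there was 1, Solyc02g092820. Their median log2 fold change was -0.11, and the summed level was 69.1 ± 11.996 FPKM in mock-treated and 64.9 ± 20.1 FPKM in Torin2-treated seedlings. Solyc07g063850 gave 53.7% of the mock sum and 49.0% of the Torin2 sum. It had 41.2, 40.4, 28.7 and 37.8 FPKM in mock replicates 1 to 4 and 23.6, 44.4, 23.5 and 35.5 FPKM in Torin2 replicates 1 to 4. The range of the Torin2-treated libraries held that of the mock-treated ones, and the log2 fold change was -0.26 (95% interval -0.78 to 0.26). After removal of the length trend the value was -0.52 (limma adjusted p = 0.00932).

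The largest value upward among GH3 genes was that of Solyc02g092820, with 1.33, 1.40, 0.711 and 0.328 FPKM in mock replicates 1 to 4 and 1.502, 1.95, 1.29 and 2.28 FPKM in Torin2 replicates 1 to 4. These values rest on 27 to 115 fragments in mock-treated and 99 to 184 fragments in Torin2-treated libraries. Torin2 replicate 3 lay below mock replicates 1 and 2, but within each kind the conditions were apart, and the log2 fold change was 0.97 (95% interval 0.11 to 1.82, adjusted p = 0.126).

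In the other direction Solyc12g005310 had 6.48, 7.10, 4.37 and 3.65 FPKM in mock replicates 1 to 4 and 2.27, 4.003, 4.21 and 6.03 FPKM in Torin2 replicates 1 to 4. The conditions overlapped widely, with a log2 fold change of -0.41 (adjusted p = 0.431). Solyc01g095580, the next most abundant GH3 gene, went from 14.0 ± 2.999 to 15.8 ± 5.97 FPKM. Solyc02g092390, Solyc01g107390 and Solyc05g006220 had log2 fold changes of -0.11, -0.33 and 0.51.

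The 10 PIN genes, which encode the auxin carriers, had a median log2 fold change of -0.08, with 5 above 0 and 5 below. After the length trend was removed their median was -0.35, against 0.02 for all genes. Then 4 of the 10 were lower at an adjusted p under 0.05 (limma), against 13.9% of all genes, and 0 were higher, against 11.8%. Past both cut-offs 2 were lower, against 4.0% of all genes. The summed level of the PIN genes was 99.3 ± 13.5 FPKM in mock-treated and 106 ± 29.1 FPKM in Torin2-treated seedlings, of which Solyc05g008060 gave 66.2% and 74.7%. Solyc05g008060 had 74.3, 66.7, 58.5 and 62.7 FPKM in mock replicates 1 to 4 and 51.9, 97.2, 72.1 and 94.9 FPKM in Torin2 replicates 1 to 4. The Torin2-treated libraries lay on both sides of the mock-treated ones, and the log2 fold change was 0.23 (95% interval -0.25 to 0.71), which turned to -0.16 after the length trend was removed.

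SlPIN2 (Solyc07g006900) was the member with the largest fall. In Arabidopsis, PIN2 carries auxin in the root tip and is needed for root gravitropism. SlPIN2 had 2.08, 3.02, 0.980 and 1.08 FPKM in mock replicates 1 to 4 and 0.473, 0.677, 0.700 and 0.758 FPKM in Torin2 replicates 1 to 4, from 77 to 235 and 37 to 58 fragments. All Torin2-treated libraries were low, and the mock-treated libraries of the first kind were higher than those of the second. The mean went from 1.79 ± 0.96 to 0.652 ± 0.124 FPKM, a log2 fold change of -1.21 (SE 0.38, limma adjusted p = 0.0487). The log2 difference was -1.68 in the first kind and -0.74 in the second. It was -1.40 after removal of the length trend (adjusted p = 0.00499). The call lay close to the threshold. It held in 1 of the 8 fits that each left out 1 library, in which the log2 fold change ran from -1.43 to -0.92.

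Further PIN genes had both Torin2-treated libraries below both mock-treated libraries in each kind, without passing the main test. Solyc03g118740 had 10.5, 9.89, 6.45 and 8.86 FPKM in mock replicates 1 to 4 and 3.96, 7.37, 3.26 and 7.05 FPKM in Torin2 replicates 1 to 4. Mock replicate 3 lay below Torin2 replicates 2 and 4, and the log2 fold change was -0.77 (limma adjusted p = 0.103). After removal of the length trend the value was -1.12 (adjusted p = 0.000809), past both cut-offs. Solyc04g007690 went from 7.51 ± 1.52 to 5.33 ± 1.38 FPKM (-0.50, adjusted p = 0.233, and -0.72 with adjusted p = 0.00318 after that removal).

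Together with SlPIN2, 3 of the 10 PIN genes had both Torin2-treated libraries below both mock-treated libraries in each kind, against 14.6% of all genes tested. None had both above in each kind, against 27.9% of all genes. By the mean log2 difference alone, 5 of the 10 were above 0 in both kinds, as were 47.8% of all genes. Solyc04g056620, at 0.774 ± 0.244 and 0.405 ± 0.185 FPKM, had a log2 fold change of -0.81 from 9 to 43 fragments per library. Solyc02g087660 had the highest value, 0.79, from 2 to 24 fragments per library, which includes a count under the floor. The others were Solyc10g078370 (-0.33), Solyc10g080880 (0.17), Solyc01g068410 (0.17) and Solyc06g059730 (0.24). After removal of the length trend Solyc10g078370 stood at -0.53 (limma adjusted p = 0.0229).

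**Figure D5:**
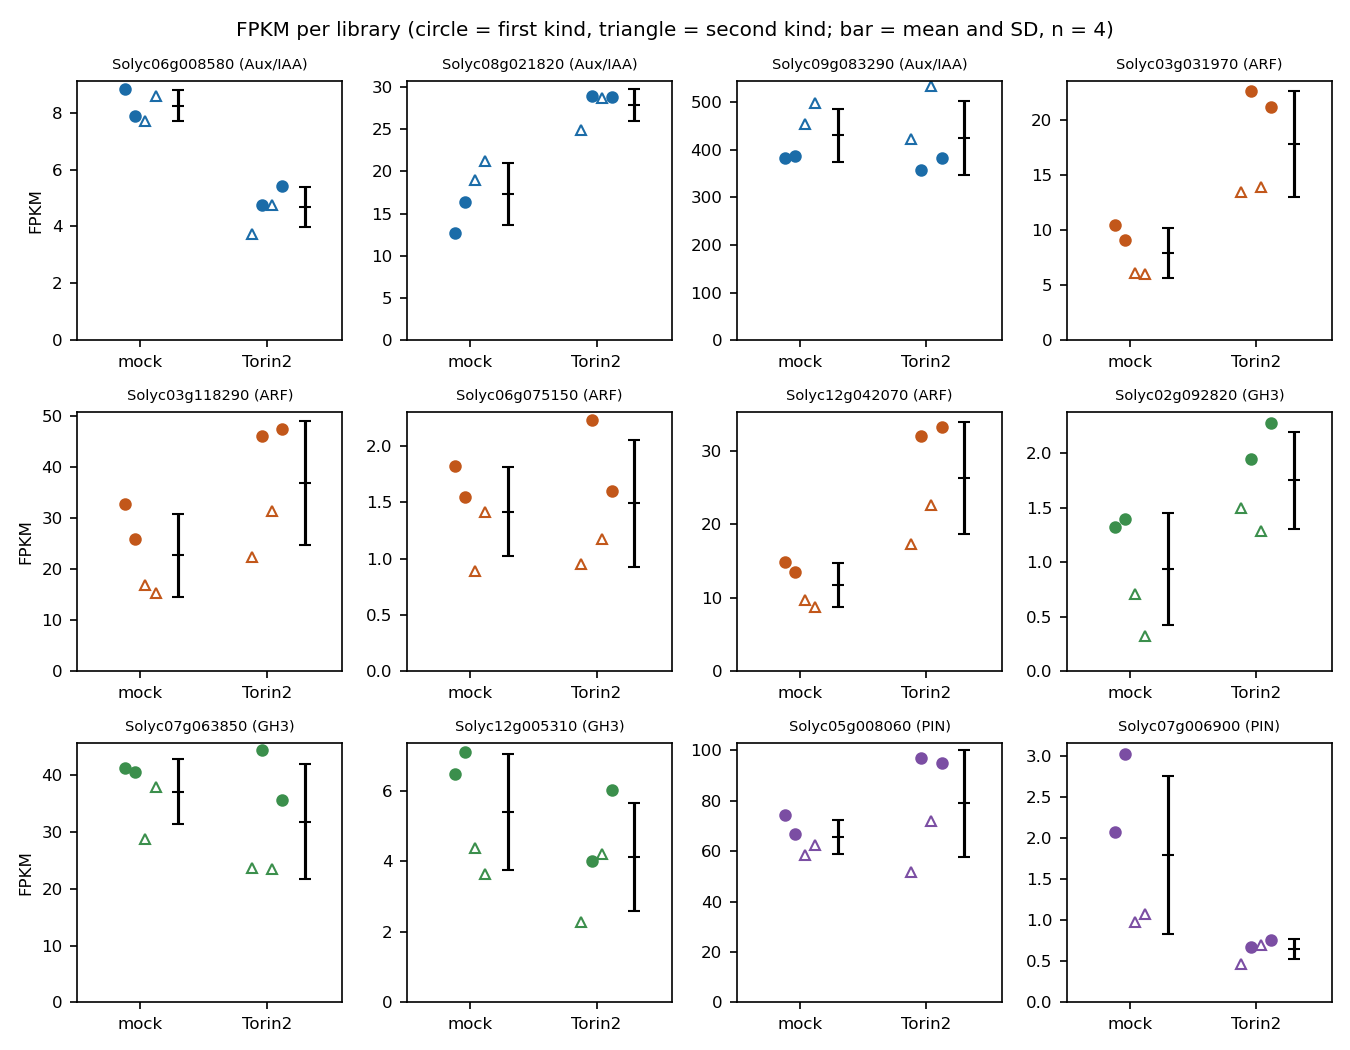
FPKM in each library for the members past both cut-offs and, in each family, the most abundant member and those with the highest and lowest log2 fold change among members with a mean of at least 1 FPKM (circles, first kind; triangles, second kind; bars, mean and SD, n = 4). The 2 called ARF genes, Solyc06g008580, Solyc08g021820 and SlPIN2 show no overlap between conditions, and the other genes do.

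Another 4 genes that the study's list of changed genes annotates as ARF6 or GH3.10 are not among the members. That list was drawn from these libraries, so their direction is not independent evidence. Solyc07g043620 and Solyc07g043610, both annotated as ARF6, had log2 fold changes of 1.85 (limma adjusted p = 0.00243) and 1.26 (adjusted p = 0.0125). After the length trend was removed the values were 1.74 and 1.29. These 2 consecutively numbered models are 1728 and 1295 bp long. Solyc12g006350, likewise ARF6 and numbered next to the member Solyc12g006340, went from 2.55 ± 0.98 to 6.15 ± 2.12 FPKM, a log2 fold change of 1.24 (limma adjusted p = 0.0225). Its model is 722 bp long, and that of Solyc12g006340 is 954 bp. Whether such neighbouring models are parts of 1 gene was not tested. Solyc08g068480, annotated as GH3.10 with a model of 237 bp, went from 11.9 ± 3.31 to 6.11 ± 2.57 FPKM, a log2 fold change of -0.998 (adjusted p = 0.0447).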

How the data were processed

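Total RNA of whole seedlings was sequenced as paired-end reads of 150 bp. Alignment to SL4.0 used HISAT2. The deposited values are FPKM (fragments scaled to gene length and library depth), 1 column per library. The submitters' processing notes name HTSeq, which counts reads per gene, and DESeq2, and the paper names edgeR; which of them made the FPKM values, and from which annotation and lengths, is not given in the sources used here. For the 25571 genes above 0 in any library, the FPKM values were whole fragments (tolerance 0.02) after division by 1 depth per library and 1 length per gene, which gave the fragments, depth and lengths used here. Floors of fragments cover counting error only, and the 95% intervals are limma intervals from the spread between libraries.

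Log2(FPKM + 0.1) was compared with limma 3.58.1 in R 4.3.3 (lmFit, eBayes with a trend, no covariate) over the 22330 genes averaging 0.1 FPKM or more, with Benjamini-Hochberg adjustment over all of them. Fold changes are on that scale, which understates the change of low genes. Genes were called at an adjusted p under 0.05 when the log2 fold change was also above 1 or below -1. Exact permutation tests were two-sided, over 70 assignments of the libraries. Length trends were removed by a loess fit (span 0.3) of each library. The code was tested on simulated data.

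Full values are given for every called member and, in each family, for the most abundant member and those with the highest and lowest log2 fold change at a mean of at least 1 FPKM. Solyc03g118740, Solyc03g120390, Solyc09g083280 and Solyc09g090910 were chosen after their values were seen. The members and lists were chosen with earlier results of these data known. Lists of auxin receptors, importers and synthesis genes and of leaf and root markers were not used here, because the reference table at hand matched none of the identifiers, so that the tissue label was not checked and no sequences are shown. Near-identical copies and overlapping genes were not examined. Alternatives were other pseudocounts, filters, scalings and variance models, limma-voom on the recovered fragments, the replicate number as a block, the kind of library and each library left out.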

Additional observations from a re-analysis of the deposited data

Results flagged for a closer look

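In 4 of 106 groups of 4 libraries, 1 library stood far from the other 3; chance alone gives about 5.3 such groups. The numbers that follow are the gap to the nearest other library as a share of the group's range. Torin2 replicate 1 was the lowest of its group for Solyc08g021820 (0.928; 25.0 FPKM against 28.7 to 29.0) and for Solyc09g083280 (0.922; 43.2 FPKM against 65.4 to 67.7). Mock replicate 4 was the highest for Solyc03g120500 (0.842; 25.5 FPKM against 21.7 to 22.2), and mock replicate 3 for Solyc06g084070 (0.874; 19.7 FPKM against 11.6 to 12.4). Without Torin2 replicate 1, the log2 fold change went from 0.70 to 0.76 for Solyc08g021820 and from -0.38 to -0.22 for Solyc09g083280.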

How the results depend on the processing

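As reported, 2 members were called higher, both ARF, and 1 lower, a PIN gene. Pseudocounts of 1 and 0.01 FPKM, no filter, TPM scaling and the replicate block each gave 0 PIN genes and 0 members lower. Median-of-ratios scaling gave 1 ARF gene and 1 member higher. Quantile normalization gave 1 Aux/IAA gene and 2 members lower. Removal of the length trend, alone or with the replicate block, gave 0 ARF genes and 0 members higher with 2 PIN genes and 2 members lower. Without the fold change cut-off there were 2 Aux/IAA genes, 3 members higher and 2 members lower. Leaving out each library gave 0 to 2 ARF genes, 0 to 1 PIN genes, 0 to 2 members higher and 0 to 1 lower.

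SlPIN2 had an adjusted p (limma) of 0.0531 at a pseudocount of 0.01 FPKM, 0.0724 with no filter, 0.116 with TPM scaling and 0.0537 with the replicate block; at a pseudocount of 1 FPKM its log2 fold change was -0.70. Same-numbered libraries are not described as pairs, and their deviations correlated at -0.38, 0.38, 0.40 and -0.25, so the block is no paired result; with it the adjusted p of Solyc06g008580 was 0.0530 and that of Solyc08g021820 was 0.0601. The call of Solyc12g042070 was lost with median-of-ratios scaling at 0.99.

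The log2 fold change changed sign for members close to 0. Solyc05g008060 gave -0.16 after removal of the length trend, alone or with the replicate block. Solyc06g075150 gave -0.11 (median-of-ratios), -0.20 (quantile), -0.30 (length trend removed, alone or with the replicate block), and -0.16 to 0.22 when each library was left out (-0.15, -0.16 and -0.013 without mock replicate 3, Torin2 replicate 2 and Torin2 replicate 4). Solyc09g083290 gave 0.17 (quantile), 0.015 (length trend removed, alone or with the block), and -0.15 to 0.048 when each library was left out (0.045, 0.048 and 0.014 without mock replicate 4, Torin2 replicate 2 and Torin2 replicate 4). The causes were not tested. Of 384 values for 16 members under alternatives, 343 were counted as the same as reported and 15 as changed in sign. Values counted as the same could still cross an adjusted p (limma) of 0.05. Solyc08g021820 went from 0.0464 to 0.112 with median-of-ratios scaling, and Solyc07g063850 from 0.513 to 0.00932 with the length trend removed. The 343 is therefore no measure of how stable the adjusted p-values were. The counts include the values within each kind of library, which have no adjusted p and so no call. Among them Solyc06g075150 was -0.08 in the second kind, against 0.04 as reported, and was not counted among the 15. Under median-of-ratios scaling the median over all genes went from 0.16 to 0.01, and the ARF median from 0.63 to 0.48 with 14 of 16 above 0 (50.8% of all genes were).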
